A study of Mus musculus with 4 samples.

Results

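Gfra1 and Ret are the genes of the receptor for glial cell line-derived neurotrophic factor (GDNF), and Etv5 and Dusp6 are taken here as its target genes. Contacts of their RNAs were taken from a table of RNA pairs in mouse spermatogonial stem cells, by splitting the name of each pair and keeping pairs with 1 of the 4 symbols on either side. The 4 genes were among 13318 RNAs in the table, and they took part in 14 of 56636 listed pairs. Of these 14, 1 joined an RNA to itself (Gfra1, a within-RNA pair) and 13 joined it to another RNA (between-RNA pairs). The study compared 2 control libraries, whose genotype tag is WT, with 2 libraries tagged Differentiation, all labelled spermatogonial stem cells of the mouse. The sources used here do not give the strain, the age, the way in which differentiation was brought about or its duration. RNA contacts were measured by RIC-seq, in which RNA is fixed in the cell with formaldehyde, cut, and joined end to end where pieces lie close together, so that a chimeric read marks a contact.

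GDNF is secreted in the testis chiefly by Sertoli cells and is needed for the renewal of spermatogonial stem cells. It binds GFRA1, a co-receptor anchored in the membrane by a lipid, and the complex activates the receptor tyrosine kinase RET. RET signals through adaptor proteins to SRC-family kinases, to PI3K and AKT, and to RAS and ERK. Etv5 encodes an ETS-family transcription factor that GDNF induces and that is needed to keep the stem cells. Dusp6 encodes a phosphatase that removes phosphate from ERK and so acts as a feedback brake on the pathway.

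The 2 control libraries held 1209031 and 1400011 counts over the listed pairs, and the 2 differentiation libraries 793129 and 1155923. A pair was listed only where each library held at least 1 count, so a pair missing from the list may still have been present in some libraries. Levels are given as CPM (counts scaled to 1000000 per library, with TMM factors from edgeR). Pairs, sums over all pairs of an RNA, and sums over its between-RNA pairs were each scaled on their own. In the sums a between-RNA count enters for both of its RNAs. CPM and changes are therefore not comparable between these kinds of value, and a pair can have more CPM than the sum that holds it. A change is a log2 ratio, negative where differentiation was lower. Its standard error (SE) was computed from the change and the F statistic of edgeR's test, so it is not separate from the p-value. Adjusted p-values come from edgeR's quasi-likelihood test over all RNAs or all pairs, two-sided, and a value under 0.05 was called. Counts follow both the amount of an RNA and its contacts, and in bulk samples fewer cells of a type and less RNA per cell cannot be told apart. The 4 members had 911 (Gfra1), 46 (Etv5), 45 (Dusp6) and 30 (Ret) counts in all, so only Gfra1 was measured with precision.

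Contacts of Gfra1 RNA fell with differentiation. Its contact total, the sum over all of its pairs, was 295 and 372 counts in the controls against 84 and 160 in the differentiation libraries. These were 170.7 and 187 CPM against 68.5 and 86.4 CPM, so both control libraries lay above both differentiation libraries. The fall was 2.31-fold, from 179 ± 11.8 to 77.4 ± 12.6 CPM (SD, n = 2; log2 change −1.20, SE 0.19, adjusted p = 0.00198). Of all RNAs tested, 6.75% were called lower and 5.44% higher, and 547 of 10993 had a change as low as that of Gfra1 or lower. Without control 2 the call was lost (adjusted p = 0.0901).

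**Figure D1:**
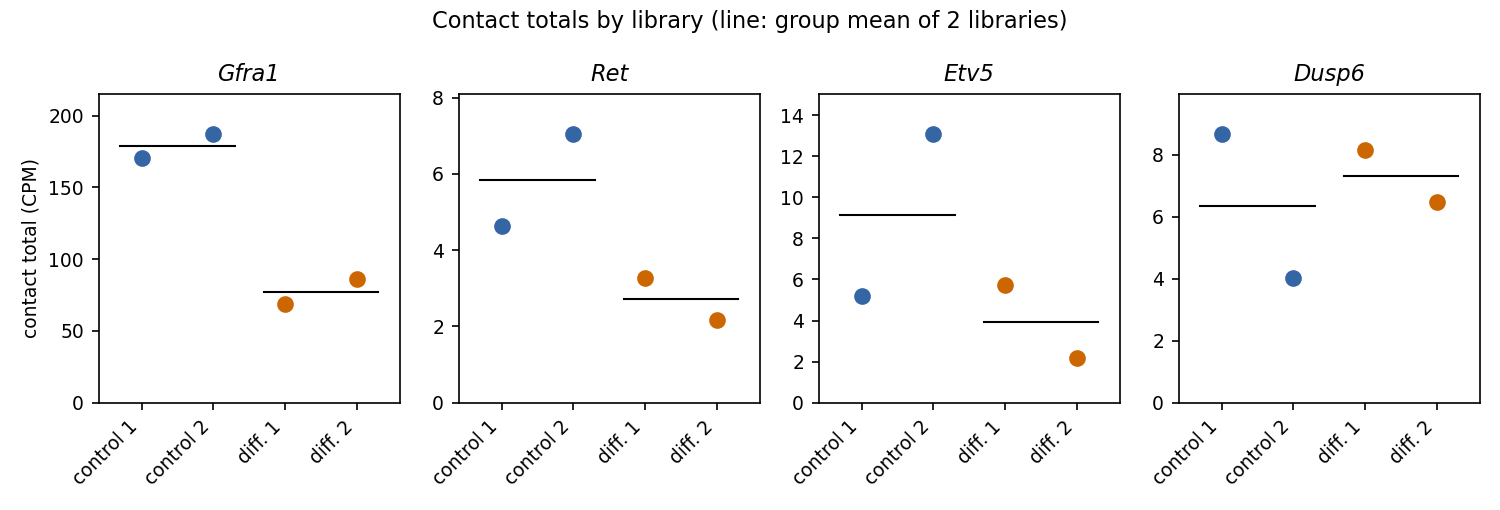
Contact totals (CPM, vertical axis from 0, its scale differing between panels) of Gfra1, Ret, Etv5 and Dusp6 in each of the 4 libraries, with a line at the mean of each group. Gfra1 and Ret had both controls above both differentiation libraries, whereas the groups overlapped for Etv5 and Dusp6.

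The pair of Gfra1 with itself held most of these counts. It had 240 and 291 counts in the controls against 74 and 145 in the differentiation libraries. On the scale of pairs these were 202 and 209 against 105 and 139 CPM. The groups did not overlap, and the change of −0.74 (SE 0.24) did not pass (adjusted p = 0.0832). It passed with scaling by column totals (0.0425), with edgeR's default filter (0.0462) and without differentiation 2 (0.0163). Within-RNA pairs as a whole had a median change of 0.44, with 3.33% of 4439 tested pairs called lower and 12.3% called higher.

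Contacts of Gfra1 with other RNAs fell. Their sum was 55 and 81 counts in the controls against 10 and 15 in the differentiation libraries. This was a 3.98-fold fall, from 51.3 ± 8.39 to 12.9 ± 0.312 CPM (n = 2; −1.98, SE 0.33, adjusted p = 8.55e-04). Both controls were far above both differentiation libraries, and 59 of 9648 tested RNAs had a change as low or lower in this sum. Among those RNAs 6.47% were called lower and 6.56% higher. The call held without any 1 of the 4 libraries, with adjusted p-values between 2.16e-05 and 0.00669 over 11 alternatives.

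Gfra1 had 5 listed partners. By counts summed over the libraries the first was Gm42418, with 14 and 38 counts in the controls against 2 and 5 in the differentiation libraries, followed by Gm26917 with 16 and 26 against 2 and 3. Gm42418 and Gm26917 are noncoding transcripts annotated over ribosomal RNA sequence, and they were listed with 63.2% and 56.9% of all other RNAs. The pair with Gm26917 fell (−2.45, SE 0.67, adjusted p = 0.0428), and that with Gm42418 had a change of −2.28 (SE 0.66, adjusted p = 0.0526). The Gm26917 call was lost without each library in turn, at adjusted p-values of 0.0562 and 0.198 (without control 1 and control 2) and 0.0511 and 0.122 (without differentiation 1 and differentiation 2). The Gm42418 pair passed in 6 of 10 alternatives (0.0158 to 0.418 over all 10), and its change was −1.54 without control 2. Beside these, the median change of all tested pairs of Gm26917 was −0.23 and that of Gm42418 0.05. Of 5587 tested Gm26917 pairs 40 had a change as low as the pair with Gfra1, and of 6261 tested Gm42418 pairs 46 did.

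The third was Slc9a9, which led in control 1 and differentiation 1. It is an ion exchanger gene whose RNA was listed with 58.8% of all other RNAs. Its pair with Gfra1 had 21 and 9 counts in the controls against 4 in each differentiation library (−1.34, SE 0.71, adjusted p = 0.301), and the change was −0.47 without control 1 and −1.90 without control 2. The controls differed from each other by more than the lower control differed from the differentiation libraries. The other partners had too few counts for a test. Shroom3, which encodes an actin-binding protein, had 2 and 4 counts against 1 and 2. Atrnl1, which encodes an attractin-like membrane protein, had 2 and 4 against 1 and 1. Gfra1 lies on chromosome 19 at 58235581 to 58455946 (GRCm38.p6), and Atrnl1 is its neighbour at 57610960 to 58133343, 102 kb away, while Shroom3 is on chromosome 5.

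The within-RNA share of the Gfra1 counts was higher in both differentiation libraries. The share was 81.4% (95% Wilson interval 76.5% to 85.4%) and 78.2% (73.8% to 82.1%) in the controls. It was 88.1% (79.5% to 93.4%) and 90.6% (85.1% to 94.2%) in the differentiation libraries, whose intervals overlap in part with those of the controls. An exact two-sided permutation test over the libraries gave p = 0.33, the smallest that 2 against 2 allows. A share higher in both differentiation libraries was found in 37.4% of the 3833 RNAs with both kinds of pair, and the median change of those RNAs was 3.54 percentage points, against 10.1 for Gfra1 on summed counts. Most of the between-RNA counts behind these shares were with Gm42418, Gm26917 and Slc9a9. Without the pairs of 6 hub RNAs (these 3 with Neat1, Malat1 and Gm10800) the share was 98.4% and 97.3% against 97.4% and 97.97%, on so few between-RNA counts that it had no room to rise.

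Ret RNA had few contacts in any library. Its contact total was 8 and 14 counts in the controls against 4 in each differentiation library, or 4.63 and 7.05 against 3.26 and 2.16 CPM. Both controls were above both differentiation libraries, as for 26.2% of all RNAs. The change of −1.14 (SE 0.63) did not pass (adjusted p = 0.279). Controls had 2.28 times the level of the differentiation libraries, and the 95% exact interval of 0.978 to 5.92 covers counting error only. Ret had no listed pair with itself. Its 3 partners were Gm42418 with 3, 7, 1 and 2 counts (controls first), Slc9a9 with 3, 4, 2 and 1, and Gm26917 with 2, 3, 1 and 1, and none of these pairs could be tested. Ret lies on chromosome 6 at 118151748 to 118197744.

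Etv5 RNA varied as much within the groups as between them. Its contact total was 9 and 26 counts in the controls against 7 and 4 in the differentiation libraries, or 5.21 and 13.1 against 5.71 and 2.16 CPM, so control 1 lay below differentiation 1. The change was −1.30 (SE 0.67, adjusted p = 0.241), and it was −0.48 without control 2 and −2.04 without differentiation 1. Counting error alone gave a ratio of control over differentiation of 2.64 with an interval of 1.31 to 5.76, which leaves out the spread between libraries. Both partners of Etv5 were the ribosomal RNA-overlapping transcripts. The pair with Gm42418 had 6 and 14 counts against 2 and 2 (−1.69, SE 0.78, adjusted p = 0.230), with no overlap between the groups. The pair with Gm26917 had 3 and 12 against 5 and 2 (−0.47, adjusted p = 0.813), and its groups overlapped. Etv5 lies on chromosome 16 at 22381313 to 22439570.

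Contacts of Dusp6 RNA did not pass the test in either direction. Its contact total was 15 and 8 counts in the controls against 10 and 12 in the differentiation libraries, or 8.68 and 4.03 against 8.15 and 6.48 CPM. Both differentiation libraries lay between the controls. The change was 0.20 (SE 0.57, adjusted p = 0.869), and it turned to −0.26 without control 2. Controls had 0.867 times the level of the differentiation libraries (95% exact counting interval 0.462 to 1.63). Its pairs with Gm42418 (6 and 5 against 3 and 6 counts) and Gm26917 (6 and 2 against 4 and 1) had changes of 0.25 and −0.09 and did not pass (adjusted p = 0.894 and 0.975). With Slc9a9 it had 3 and 1 against 3 and 5 counts, the only one of the 14 pairs with both differentiation libraries above both controls on the CPM scale, on too few counts for a test. Dusp6 lies on chromosome 10 at 99263231 to 99267489.

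Over all 14 pairs, 8 had counts enough for a test. Of these 1 fell, 0 rose and 4 had an unadjusted p under 0.05 in edgeR, while 2.4% of all tested pairs were called lower and 2.85% higher. Of tested between-RNA pairs alone, 2.25% were called lower and 1.3% higher. DESeq2 called none, but it gave an adjusted p for only the pairs of Gfra1 with itself (0.0975) and with Gm42418 (0.11). Both controls were above both differentiation libraries in 8 of the 14 pairs, beside 20.3% of all listed pairs, and 5 of the 14 had groups that overlapped. The pairs of a member share its RNA, so they are not separate results.

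**Figure D2:**
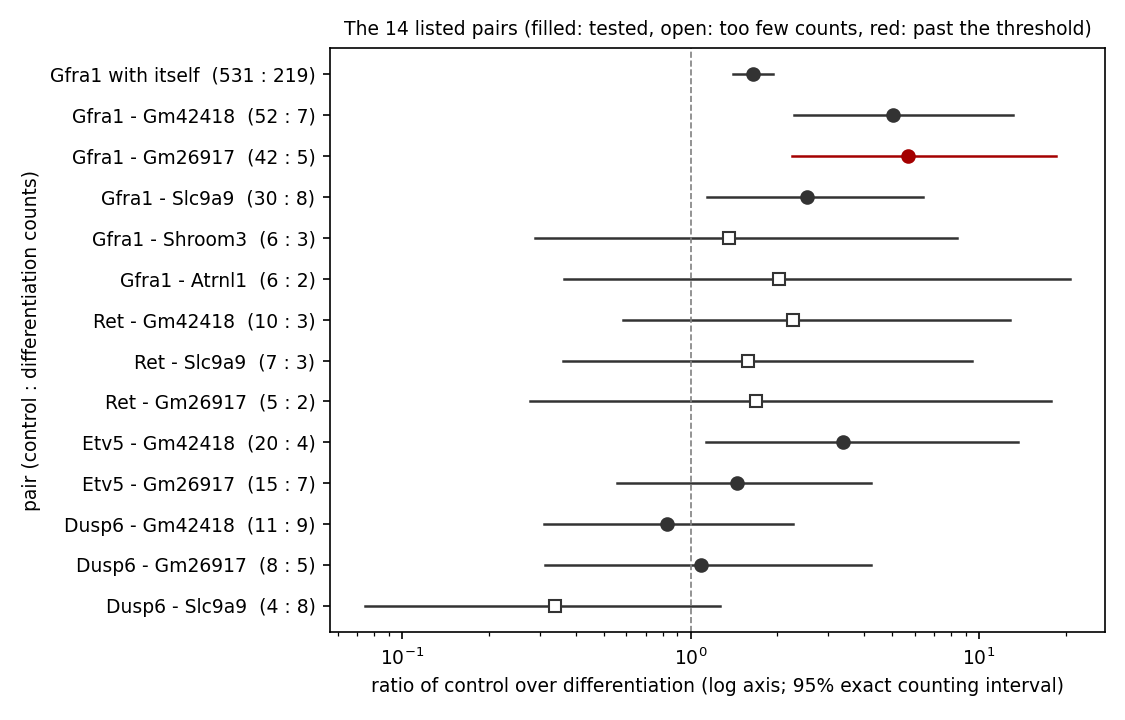
Ratio of control over differentiation (log axis) of each of the 14 pairs, with its 95% exact counting interval and the summed counts of both groups beside its name. The pairs of Gfra1 with itself, Gm42418, Gm26917 and Slc9a9, and the pair of Etv5 with Gm42418, had intervals above 1, while all pairs of Ret and Dusp6 had intervals that included 1.

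No listed pair joined any 2 of the 4 members. The members had 5 partners in all, and 11 of the 13 between-RNA pairs were with Gm42418, Gm26917 or Slc9a9. These held 92.7% (95% Wilson interval 82.7% to 97.1%) and 90.1% (81.7% to 94.9%) of the between-RNA counts of Gfra1 in the controls, and 80.0% of 10 and of 15 counts in the differentiation libraries. They held all such counts of Ret, Etv5 and Dusp6. Of all 51800 listed between-RNA pairs, Gm42418 was in 8422, Gm26917 in 7584 and Slc9a9 in 7833. A pair was listed only with at least 1 count in each library, which left RNAs of few counts little room for other partners. Neat1, the RNA that builds paraspeckles, was listed with 8.66% of all other RNAs and Malat1, a nuclear speckle RNA, with 16.4%, but neither was listed with a member. The contact totals of Neat1 and Malat1 were among those that fell in these libraries, and no count of theirs enters the totals of the members.

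**Figure D3:**
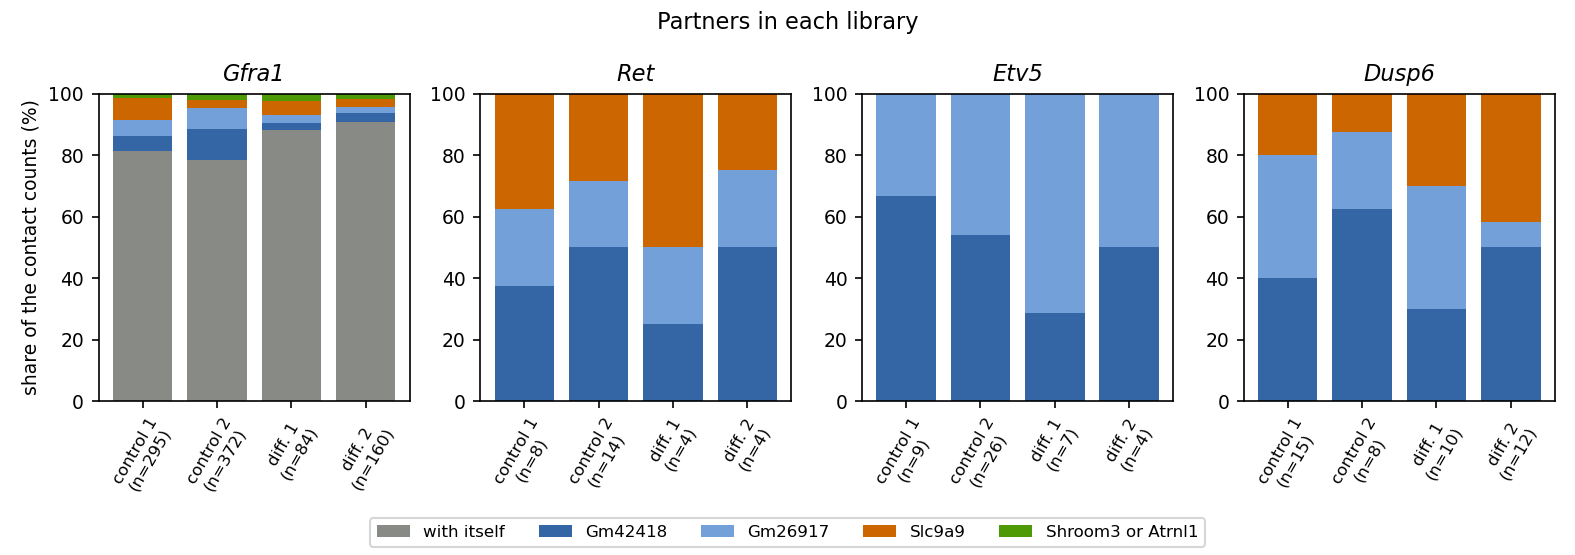
Share of the contact counts of each gene (percent, vertical axis) held by the pair with itself and by each partner, in each library, with the number of counts under each bar. The pair with itself took 78.2% to 90.6% of the Gfra1 counts, and Gm42418, Gm26917 and Slc9a9 took all counts of the other genes.

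Per length of the gene, the order of the members differed from that of their counts. On the scale of contact CPM per kb of gene span, exons and introns together, Dusp6 stood at 1.49 ± 0.772 in the controls and Gfra1 at 0.812 ± 0.0536. Etv5 (0.157 ± 0.0958) and Ret (0.127 ± 0.0373) were lower (SD, n = 2). Dusp6 was above Gfra1 in every library, though their means in the controls differed by less than the SD of Dusp6. On this scale Gfra1 lay above Etv5 and Ret in every library, and Etv5 and Ret did not differ beyond their spread. These levels include the pair of Gfra1 with itself, which held 78.2% to 90.6% of its counts. The other members had no such pair. The place of Gfra1 above Etv5 and Ret did not hold for between-RNA sums with differentiation. Their means there were 12.9 CPM for Gfra1 (220 kb), 6.19 for Etv5 (58.3 kb) and 4.29 for Ret (46.0 kb). Per kb Gfra1 was thus the lowest of these means, on few counts. In the controls the between-RNA means were 51.3, 12.9 and 8.25 CPM for the same genes. For contact totals per kb, the levels with differentiation were 1.72 ± 0.278 for Dusp6, 0.351 ± 0.0574 for Gfra1, 0.0675 ± 0.0431 for Etv5 and 0.0589 ± 0.0169 for Ret. Spans ran from 4.26 kb for Dusp6 to 220 kb for Gfra1, and a long intron adds to the span whether or not its RNA was present.

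The other genes of the pathway were read from 7 lists of 129 genes without the members, of which 96 were listed and 88 tested. Of these 13 fell and 1 rose, that is 14.8% and 1.14%, with a median change of −0.28, beside 6.75% and 5.44% and a median of −7.07e-04 over all RNAs. Without control 2 none of the 14 was called, and without control 1 only Gab1 (adjusted p = 0.0349) and Rps6ka2 (0.0374) were. Without differentiation 2 Ncam1 (0.0634) and Egr1 (0.102) lost their calls. Without differentiation 1 the number that rose was 5. Under column totals 6 fell, and without the pairs of the hub RNAs 7 fell. The 6.75% and 5.44% are from the main fit, and the shares of all RNAs called under the other settings are not given here. It therefore cannot be told whether these counts moved more than the calls over all RNAs.

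Among ligands and receptors of the GDNF family, 2 of 6 tested RNAs fell, 1 of which is Gfra1 itself, and the median was −0.94. The other was Ncam1, a cell adhesion molecule that can also bind GDNF, with 141 and 190 counts against 68 and 94 (−0.75, SE 0.21, adjusted p = 0.0358). Without hub pairs the adjusted p of Ncam1 was 0.894, with column totals 0.105 and with DESeq2 0.107. In its between-RNA total, which holds the same counts, it was 0.0628. The ligand Gdnf had 11 and 14 counts against 4 and 3 (−1.51, SE 0.64, adjusted p = 0.155). Gfra4, a co-receptor for another ligand of the family, had 1 and 6 against 10 and 15 (2.08, SE 0.70, adjusted p = 0.0762). Gdnf and Gfra4 were chosen after their values were seen. Gfra2 and Gfra3 were among 6 members of the list with no listed pair.

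Among adaptors and SRC-family kinases that act below RET, 5 of 22 fell and 1 rose, with a median of −0.42. Gab1, a docking protein that links receptors to PI3K and SHP2, had 458 and 557 counts against 149 and 221 (−1.18, SE 0.16, adjusted p = 8.97e-04). The ubiquitin ligase gene Cblb fell by 0.98 on the log2 scale (adjusted p = 0.00153), as did the kinase gene Fyn (−0.98, adjusted p = 0.0110), which lost its call without hub pairs (0.356). The contact total of Cbl, the close relative of Cblb, rose by 0.83 (SE 0.16, adjusted p = 0.00730), from 214 and 270 counts to 282 and 428. The pair of Cbl with itself rose (1.3953, adjusted p = 9.75e-04), beside a median of 0.44 over all tested within-RNA pairs. Its between-RNA total had a change of −0.21 and did not pass (adjusted p = 0.671), so a rise of its contacts with other RNAs was not seen. In the RAS-ERK cascade 3 of 19 fell and 0 rose, with a median of −0.53. They were the ribosomal S6 kinase gene Rps6ka2 (1208 and 1397 counts against 377 and 629; −1.11, SE 0.15, adjusted p = 7.60e-04), the RAS-related gene Rras2 (−0.93, adjusted p = 0.00407) and the scaffold gene Ksr1 (−0.92, adjusted p = 0.0211; 0.523 without hub pairs).

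Of 19 tested genes that ERK induces or that feed back on it, 1 fell and 0 rose, and the median was 0.08. The 1 called was Egr1, an immediate early transcription factor gene, with 62 and 60 counts against 20 and 26 (−1.13, SE 0.32, adjusted p = 0.0408). Egr1 did not pass with column totals (0.0772) or DESeq2 (0.138), and could not be tested without the hub pairs. Phlda1, with 5 and 5 counts against 11 and 17, did not pass (1.72, adjusted p = 0.0731). In between-RNA totals of the same counts Phlda1 was called higher (1.89, 0.0334) and Egr1 lower (−0.96, 0.0397). Phlda1 was chosen after its values were seen. This list holds Dusp6 and Etv5 too. In the PI3K-AKT-mTOR list 2 of 20 fell, with a median of −0.29, and both are FOXO transcription factor genes that AKT inhibits, Foxo1 (−0.83, SE 0.17, adjusted p = 0.00938) and Foxo3 (−0.90, SE 0.21, adjusted p = 0.0183; 0.589 without hub pairs). Among genes that GDNF regulates in spermatogonial stem cells only 5 of 16 could be tested. Sdc4, a heparan sulphate proteoglycan gene, fell from 520 and 561 counts to 239 and 364 (−0.58, SE 0.15, adjusted p = 0.0318). Its call was lost without hub pairs (0.593), with column totals (0.144) and in its between-RNA total of the same counts (−0.41, 0.118). Bcl6b, Lhx1, Id4 and Nanos2 were not listed. Of 3 tested FGF ligand and receptor RNAs none passed in edgeR, none had an unadjusted p under 0.05 and none was called by DESeq2, and the receptor genes Fgfr2 and Fgfr1 had changes of −0.04 and 0.06.

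**Figure D4:**
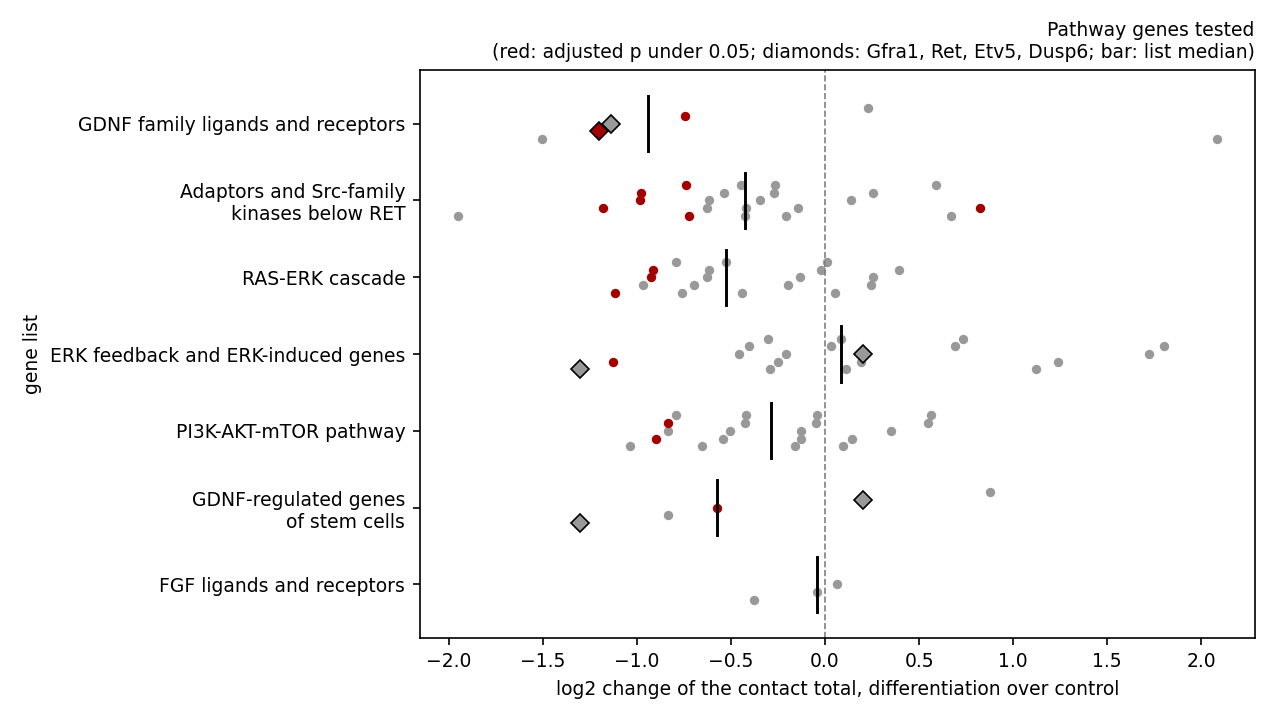
Log2 change of the contact total (differentiation over control, horizontal axis) of each tested gene in the 7 pathway lists, with called genes in red, the 4 members as diamonds and a bar at the median of each list. Gfra1 at −1.20 is the only diamond in red, and the list medians run from −0.94 for GDNF family ligands and receptors to 0.08 for ERK feedback genes.

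Of between-RNA pairs, 2 joined genes of these lists, and neither held a member. Ksr1 and Nf1, 193 kb apart on chromosome 11, had 10 and 10 counts in the controls against 3 and 6 in the differentiation libraries (−0.60, SE 0.66, adjusted p = 0.687). Fgfr2 and Fgfr1, on different chromosomes, had 2 counts in each library, too few for a test.

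The RNAs whose contact totals ran most like those of Gfra1 were Tle4, Ghr and Syk. Likeness was the root-mean-square difference of centred log2 CPM over the 4 libraries, among 5172 other RNAs with a mean of at least 20 CPM, and it was 0.0138, 0.0168 and 0.0190. Tle4, a corepressor gene, had 349 and 376 CPM in the controls against 139 and 172 CPM in the differentiation libraries (−1.22, SE 0.17, adjusted p = 9.50e-04). For Ret, Crtc3 and Ptpn1 were among the 3 nearest (0.0551 and 0.0759), and for Etv5 the nearest were Xkr4, Arntl and Ankrd44 (0.263 to 0.313), with 30 counts for Ret and 46 for Etv5 over the 4 libraries. For Dusp6, with 45 counts, Arpc5 was among the 3 nearest (0.0797).

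Markers of the labelled cell type and of other cells moved in the same libraries. Of 18 markers of undifferentiated spermatogonia 10 were listed and 7 tested, and 2 fell, Gfra1 and Shisa6 (940 and 1267 counts against 173 and 195; −2.27, SE 0.19, adjusted p = 3.52e-05). Of general germ cell markers 6 of 8 were listed, Ddx4 and Dazl among them. Their summed level was 29.5 and 30.2 CPM in the controls against 68.5 and 61.5 CPM in the differentiation libraries. None of 6 tested contact totals was called (median 1.00). In between-RNA totals, which hold the same counts for these genes, Piwil2 (1.29, adjusted p = 0.0237), Tdrd1 (2.04, 0.0290) and Tex101 (1.99, 0.0440) were called higher. Ddx4, Dazl and Mael were not, and 6.56% of all RNAs were called higher in these totals. These genes were named after their values were seen. Of 12 Sertoli cell markers 10 were listed, Amh and Rhox5 were not, and 6 of 9 tested fell, with a median of −1.002. They included Clu (−1.26, adjusted p = 0.00106), Cldn11 (−1.28, adjusted p = 0.00125) and Kitl (−0.91, adjusted p = 0.00592), and the summed level of the list went from 1249 and 1423 CPM to 753 and 727 CPM. None of these 3 kept its call without control 2 (adjusted p = 0.0657, 0.0653 and 0.183). Kitl also lost it without control 1 (0.0671), and Cldn11 without the hub pairs (0.215). Of 15 fibroblast and feeder markers 12 were listed, and 4 of 11 tested fell and 1 rose, with a median of −0.47. Those that fell included Fbn1 (−1.39, adjusted p = 0.00143), Col3a1 (−1.20, adjusted p = 0.00415) and Col1a1 (−0.67, adjusted p = 0.0178). Col1a1 lost its call without the hub pairs (0.106). The summed level of the list was 2005 and 1857 CPM against 1756 and 1912 CPM. The part of these cells in the fall of Gfra1 and of the pathway genes was not tested. Differentiating-cell markers (6 of 8 listed, 5 tested, median 0.40) had none called.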

How the data were processed

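RIC-seq contact counts were read from 1 table of RNA pairs by library, with 2 control and 2 differentiation libraries. The values are raw counts as deposited by the authors. STAR and GRCm38 are named in the submitters' processing notes, and how pairs were counted and filtered is not given in the sources used here. Each pair name was split into its RNAs. Counts were tested per pair, and after summing all pairs, or between-RNA pairs only, for each RNA. The tool was edgeR 4.0.16 in R 4.3.3 (glmQLFit and glmQLFTest, TMM scaling, filterByExpr with a minimum count of 5 and a minimum total of 10), with Benjamini-Hochberg adjustment over all pairs or RNAs. The code was tested on simulated data. For pairs it recovered 0 of 100 changes of 2-fold and 27 of 100 of 4-fold. For contact totals it recovered 21 of 100 and 78 of 100. A change that did not pass is therefore not shown to be absent. Alternatives were DESeq2 1.42.0, other scalings and filters, a replicate block, left-out libraries, and sums without hub RNAs or without the 10 largest pairs.

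Whether replicates are separate cultures is not stated in the labels, and the spread behind each p-value is that of these 4 libraries and could be technical. Wilson intervals for shares and exact conditional binomial intervals for ratios (95%) cover counting error only. Without strand information, reads of overlapping genes cannot be told apart. Gfra1 overlaps the annotated genes Gm46650 and Gm10007, and Dusp6 overlaps Gm34921. None of these had a listed pair, and Ret and Etv5 overlap no other annotated gene. The members and gene lists were chosen with earlier results of these data known. Named genes were the 4 members, up to 6 partners of each with the most counts, up to 4 called genes per pathway list (2 with the most counts where none was called), up to 3 called genes per marker list, and the 3 RNAs nearest in profile to each member. Some of these nearest RNAs are not reported here. Coordinates come from RefSeq's GRCm38.p6 annotation.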

Additional observations from a re-analysis of the deposited data

How the results depend on the processing

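The Gfra1 contact total kept its direction in 12 alternatives (−1.39 to −1.02, both among the left-out libraries) and its call in 11 (adjusted p from 1.03e-06 to 0.0901). Its between-RNA total kept its call in all 11 that could be run, and could not be tested without hub RNAs. The pair of Gfra1 with itself ran from −0.97 to −0.57 with a library left out, and passed with column totals (−0.88) and the default filter (−0.75). The within-RNA share difference was −0.17 percentage points without hub RNAs. With a library left out, the Dusp6 total ran from −0.26 to 0.83 and its between-RNA total from −0.11 to 1.01. The pair of Dusp6 with Gm42418 ran from −0.0055 to 0.50, that with Gm26917 from −1.62 to 0.97, and the pair of Etv5 with Gm26917 from −1.53 to 0.67. The number of member pairs called lower (1) was 0 with DESeq2, 2 with RLE scaling, 3 with column totals, 3 with the default filter, 2 with no filter and 0 to 1 with a library left out. The number of other pathway genes called lower (13) was 6 with column totals, 7 without hub RNAs and 0 to 17 with a library left out, and the number called higher (1) was 0 to 5. In these cases the cause was not tested, and the shares of all pairs or RNAs called under these settings are not given here. Column totals moved the median of all pairs by −0.14 and of all contact totals by 0.16.

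The labels do not say what the replicate numbers share, and same-numbered deviations correlated at 0.143 over 10993 RNAs; with 2 pairs this does not settle whether the numbers pair the libraries. With the replicate block, 2 member pairs were lower, and 17 other pathway genes were lower and 4 higher, again without the shares over all features. DESeq2 gave no adjusted p for the totals of Ret, Etv5 and Dusp6. Each of these 3 genes had 30 to 46 counts, and the part of depth in their missing calls was not tested.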
